A study of Homo sapiens with 4 samples.

Results

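In all, 10 genes of cystine uptake, cysteine synthesis and glutathione metabolism were followed across RNA-seq libraries of HT-1080, a human fibrosarcoma line widely used to study ferroptosis, a form of cell death driven by iron-dependent lipid peroxidation. They were chosen by symbol, and all 10 were found among the 20323 genes of the deposited table, each in a single row. There were 4 libraries, all of HT-1080 cells grown under the same culture conditions: 2 controls with the genotype label sgNC (control 1 and control 2), 1 in which protein kinase A was targeted (sgPKA) and 1 in which ALKBH5 was targeted (sgALKBH5), the enzyme that removes N6-methyladenosine from RNA. The labels name neither the kinase subunit targeted nor whether the cells were a clone or a pool, and no treatment is given. Each knockout had 1 library, so no difference from the controls has a replicate check, and the labels do not say whether the controls were separate cultures. The p-values given below therefore measure only the spread between these 2 libraries, which may be technical. Sequencing was shallowest for sgPKA, with 14050867 counts in total, and deepest for sgALKBH5, with 25937347.

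Cells take up cystine in exchange for glutamate through system xc-, whose transport subunit is SLC7A11 and whose heavy chain is SLC3A2. Inside the cell cystine is reduced to cysteine, which can also be made from homocysteine by the transsulfuration enzymes CBS and CTH. Glutamate-cysteine ligase, made of the catalytic subunit GCLC and the modifier subunit GCLM, carries out the rate-limiting step of glutathione synthesis, and GSS adds glycine to complete the tripeptide. Glutathione is the reductant used by GPX4 against lipid hydroperoxides, GSR regenerates it from its oxidised form with NADPH, and transferases such as GSTP1 and MGST1 conjugate it to electrophiles.

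PRKACA, the gene of a catalytic subunit of protein kinase A, was at 60.5 and 70.1 TPM (transcript abundance scaled for length and depth) in the controls, 10.6 TPM in sgPKA and 70.9 TPM in sgALKBH5. For ALKBH5 the controls gave 80.2 and 67.6 TPM, sgPKA 67.1 TPM and sgALKBH5 37.5 TPM. Each was lowest in the library labelled for it, and GPX4 was at 419 and 464 TPM in the controls, 269 TPM in sgPKA and 482 TPM in sgALKBH5. Of 9 mesenchymal markers, 7 had a mean of at least 1 TPM, with VIM at 6730 TPM or more in every library, THY1 at 0.226 TPM or less and COL1A2 at 0 in sgPKA. Their summed level ran from 8719 to 11763 TPM, most of it VIM. In sgPKA 4 of the 7 lay below both controls and the median difference in log2(TPM + 1) was -0.66. COL1A1 was at 7.69 and 2.29 TPM in the controls, 0.184 TPM in sgPKA and 10.6 TPM in sgALKBH5, and SPARC at 2215, 909, 635 and 1742 TPM in the same order. S100A4 was at 22.8 and 55.4 TPM in the controls, 17.7 TPM in sgPKA and 10.9 TPM in sgALKBH5, and 4 of the 7, FN1 among them at 1030 and 118 TPM, lay 2-fold apart between the controls. The summed level of 4 haematopoietic markers was at most 0.275 TPM, that of 3 endothelial markers at most 1.06 TPM and that of 3 liver markers between 2.11 and 11.5 TPM. Summed over 5 epithelial markers, the level was 1392 and 1023 TPM in the controls, 478 TPM in sgPKA and 836 TPM in sgALKBH5. KRT8 and KRT18 made up nearly all of it, EPCAM was at 0 in all 4 libraries and CDH1 at most at 0.128 TPM. The part of these marker differences in the results below was not tested, and in bulk RNA fewer cells of a type cannot be told from less RNA per cell.

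The 10 genes spanned a wide range of levels per transcript length. In the controls GSTP1 led at 642 ± 22.9 TPM (SD, n = 2), followed by SLC3A2 at 191 ± 17.3 TPM and GSS at 137 ± 0.530 TPM. MGST1 stood at 68.7 ± 1.25 TPM, GSR at 56.9 ± 2.60 TPM and GCLM at 21.45 ± 0.823 TPM. These 6 kept the same order in both controls. CBS was at 14.9 ± 0.640 TPM, GCLC at 9.17 ± 1.41 TPM, CTH at 3.92 ± 1.23 TPM and SLC7A11 at 3.64 ± 0.766 TPM. CTH and SLC7A11 did not differ beyond the spread of the controls and changed places between them, with CTH lower in control 1 and SLC7A11 lower in control 2. The partner subunits of system xc- thus lay far apart, with 48.6 SLC3A2 transcripts per SLC7A11 transcript in control 1 and 57.7 in control 2. On the scale of log2(TPM + 1), the median absolute difference between the controls was 0.09 over the 10 genes and 0.25 over the 11629 genes with a mean of at least 1 TPM. None of the 10 lay 2-fold apart between the controls, against 6.41% of those 11629 genes.

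**Figure D1:**
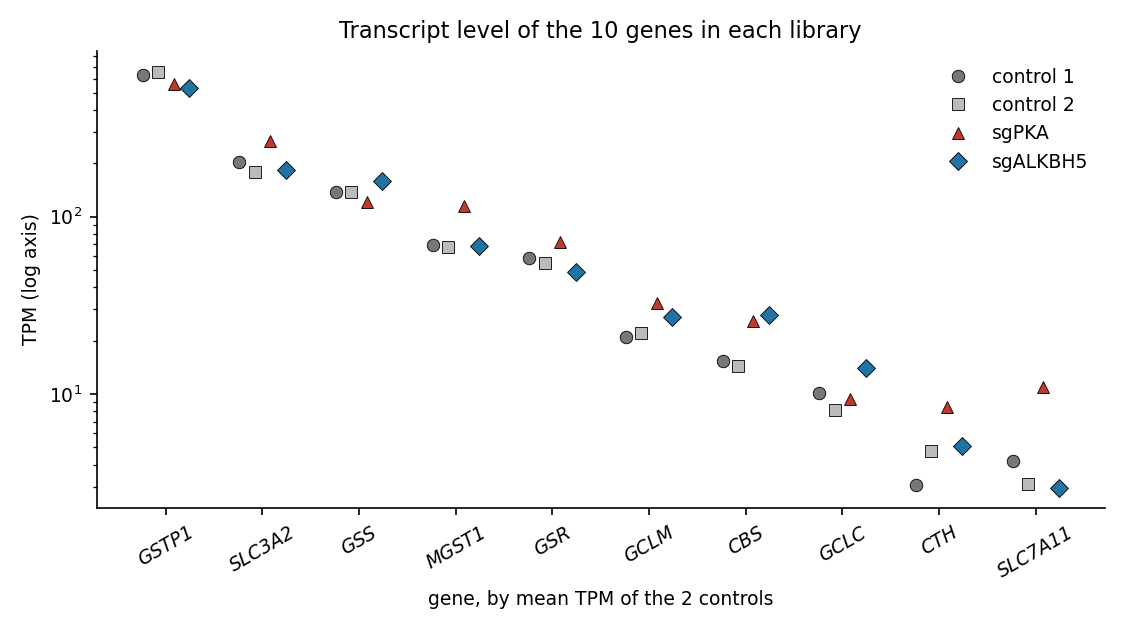
TPM on a log axis of the 10 genes in the 4 libraries, ordered by the mean of the 2 controls, with 1 point per library. SLC7A11 stands at 11.03 TPM in sgPKA, above the other 3 libraries, which lie between 2.97 and 4.19 TPM, while GSTP1 leads in all 4.

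Setting sgPKA beside the controls asks which transcripts differ where the kinase is targeted. Of the 10 genes, SLC7A11 alone lay at least 2-fold above both controls, 7 were above both to any extent and 2 were below both. By the 2-fold rule on log2(TPM + 1), 1.04% of all genes were higher than both controls and 1.39% lower. Lying above both controls was common, since 50.3% of genes did so in TPM, and 26.9% lay below both. After scaling counts by the trimmed mean of M values (TMM), the 10 genes were again split into 7 above and 2 below, against 39.7% and 38.3% of all genes. The median difference in log2(TPM + 1) from the control mean was 0.53 over the 10 genes and 0.15 over all genes, and the median count-based log2 fold change was 0.39 against -0.01. TPM values of sgPKA thus ran higher across all genes, and count-based values are given beside them for the 10 genes.

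SLC7A11 (ENSG00000151012) lies on chromosome 4 from 138164097 to 138242349 in GRCh38.p14. It was at 4.19 TPM in control 1, 3.10 TPM in control 2, 11.03 TPM in sgPKA and 2.97 TPM in sgALKBH5. The sgPKA library alone was high, 3.03-fold the control mean in TPM. These values rested on 399, 312, 782 and 392 counts in the same order. The ratio of TMM-normalised counts to the pooled controls was 2.66, with an exact 95% counting interval from 2.40 to 2.95 that covers counting error only. In log2, the count-based difference was 1.41 (SE 0.25). In edgeR's quasi-likelihood test, whose spread came from the 2 controls alone, the unadjusted p was 0.00424 and the adjusted p over 13061 genes was 0.527. The difference therefore did not pass the test, and DESeq2 gave an adjusted p of 0.140.

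SLC3A2 (chromosome 11 from 62856109 to 62888860), whose product carries SLC7A11 and other light chains to the plasma membrane, was at 204 and 179 TPM in the controls, 268 TPM in sgPKA and 184 TPM in sgALKBH5. The sgPKA value lay above both controls by 0.39 and 0.58 on the log2(TPM + 1) scale, less than the difference of SLC7A11. Its count ratio to the pooled controls was 1.20 (counting interval from 1.16 to 1.25). The ratio of SLC3A2 to SLC7A11 transcripts was 24.3 in sgPKA, below the 48.6 and 57.7 of the controls. In sgALKBH5 that ratio was 61.9. Of the other light chains that pair with SLC3A2, the leucine carrier gene SLC7A5 was at 245 and 192 TPM in the controls, 349 TPM in sgPKA and 229 TPM in sgALKBH5. SLC7A6 was at 17.1 and 11.01 TPM in the controls, 25.4 TPM in sgPKA and 19.5 TPM in sgALKBH5. SLC7A5 and SLC7A6 lay above both controls in sgPKA but under 2-fold from control 1. The third light chain with a mean of 1 TPM, SLC7A7, named here after its values were seen, was at 1.72 TPM in control 1, 2.37 TPM in control 2 and 1.39 TPM in sgPKA, on at most 43 counts per library. Its sgPKA value lay below both controls in TPM and between them on counts.

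The transsulfuration genes were also higher in sgPKA than in both controls. CTH (chromosome 1 from 70411268 to 70439851), which releases cysteine from cystathionine, was at 3.06 and 4.79 TPM in the controls, 8.49 TPM in sgPKA and 5.11 TPM in sgALKBH5. The sgPKA library was the highest of the 4, but the controls themselves differed by 0.51 on the log2(TPM + 1) scale. The difference of sgPKA was 1.23 from control 1 and 0.71 from control 2, so CTH missed the 2-fold rule through control 2. Without control 2, 2 of the 10 genes pass that rule, SLC7A11 and CTH. Its counts were few, at 60, 104, 127 and 146 in control 1, control 2, sgPKA and sgALKBH5, and the count ratio was 1.87 with a counting interval from 1.47 to 2.38. In log2, the count-based difference was 0.90 (SE 0.53).

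CBS (chromosome 21 from 43053191 to 43076873), which joins homocysteine and serine to cystathionine, was at 15.3 and 14.4 TPM in the controls, 25.96 TPM in sgPKA and 27.9 TPM in sgALKBH5. Both knockout libraries lay above both controls, by 0.72 and 0.81 in sgPKA and by 0.82 and 0.90 in sgALKBH5 on the log2(TPM + 1) scale. The deposited table also lists CBSL (ENSG00000274276), a near-identical copy that the RefSeq table of GRCh38.p14 gives only as another name of CBS. Of the distinct 31-base words in GENCODE 29 transcripts of CBSL, 93.8% also occur in transcripts of CBS, and 55.9% of the words of CBS occur in CBSL. CBSL was at 21.2 and 23.2 TPM in the controls, 32.3 TPM in sgPKA and 24.07 TPM in sgALKBH5. The level of each copy is therefore uncertain, and their sum is the safer value.

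Summed over both copies, the level was 36.6 and 37.6 TPM in the controls, 58.2 TPM in sgPKA and 51.95 TPM in sgALKBH5. Both knockouts stayed above both controls. The ratio of summed normalised counts to the pooled controls was 1.37 in sgPKA (counting interval from 1.27 to 1.48) and 1.35 in sgALKBH5 (1.26 to 1.44). For CBS alone the ratio was 1.49 in sgPKA and 1.80 in sgALKBH5, so the row of CBS by itself placed sgALKBH5 further from the controls than the sum did. The split of counts between the rows of CBS and CBSL also differed, and how reads matching both were divided is not described. CBS received 42.7% of the joint counts in control 1 (Wilson 95% interval from 39.5% to 46.02%), 39.02% in control 2 (35.9% to 42.1%), 44.4% in sgPKA (41.4% to 47.4%) and 54.7% in sgALKBH5 (52.4% to 57.1%). The interval of sgALKBH5 did not overlap those of the other 3 libraries. These intervals treat estimated counts as reads and cover counting error only.

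**Figure D2:**
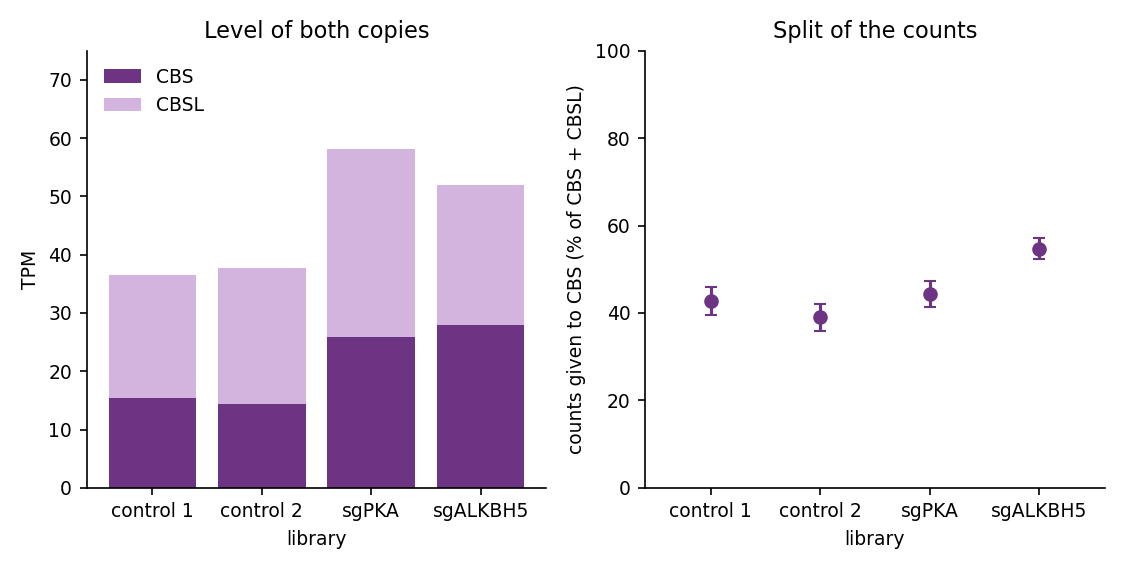
Left, TPM of CBS and its near-identical copy CBSL, stacked, in each library. Right, the percentage of their joint counts given to CBS with Wilson 95% intervals, which is 54.7% in sgALKBH5 and between 39.02% and 44.4% in the other 3 libraries.

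Genes of glutathione synthesis itself lay on different sides of the controls. GCLM (chromosome 1 from 93885199 to 93909430) was at 20.9 and 22.03 TPM in the controls, 32.6 TPM in sgPKA and 27.3 TPM in sgALKBH5. Both knockout libraries were above both controls, with count ratios of 1.43 (counting interval from 1.32 to 1.54) in sgPKA and 1.27 (1.18 to 1.36) in sgALKBH5. Its partner GCLC (chromosome 6 from 53497341 to 53545101) was at 10.2 and 8.17 TPM in the controls, 9.37 TPM in sgPKA and 13.96 TPM in sgALKBH5. In sgPKA it lay between the controls, and its sign turned with the scale, at 0.04 in log2(TPM + 1) and -0.08 in the count-based log2 fold change. The ratio of GCLM to GCLC transcripts was 2.05 and 2.70 in the controls, 3.48 in sgPKA and 1.96 in sgALKBH5. In counts the same ratio was 2.22 and 3.35 in the controls, 4.05 in sgPKA and 2.51 in sgALKBH5. The balance of the ligase subunits thus lay above both controls in sgPKA on both scales, while sgALKBH5 was below both in TPM and between them in counts. GSS (chromosome 20 from 34928432 to 34956027) was at 138 and 137 TPM in the controls, 121 TPM in sgPKA and 160 TPM in sgALKBH5. It was the most alike of the 10 between the controls in TPM, and the knockouts lay on either side of them, at -0.39 and 0.15 in count-based log2 fold change (SE 0.21 for each).

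GSR (chromosome 8 from 30678066 to 30727846), which recycles oxidised glutathione, was at 58.7 and 55.1 TPM in the controls, 72.0 TPM in sgPKA and 48.7 TPM in sgALKBH5. The count ratios were 1.15 (counting interval from 1.08 to 1.22) and 0.841 (0.795 to 0.890). GSTP1 (chromosome 11 from 67583812 to 67586653), a cytosolic transferase, was below both controls in both knockouts, at 557 TPM in sgPKA and 528 TPM in sgALKBH5 against 625 and 658 TPM. On counts this was -0.40 and -0.35 in log2 (SE 0.21 for each). MGST1 (chromosome 12 from 16347115 to 16593331), a membrane-bound transferase that also reduces lipid hydroperoxides, was at 69.5 and 67.8 TPM in the controls, 114 TPM in sgPKA and 68.7 TPM in sgALKBH5. The sgPKA library alone stood apart, with a count ratio of 1.45 and a counting interval from 1.32 to 1.59. The membrane-bound and the cytosolic transferase thus lay on opposite sides of the controls in sgPKA, and the ratio of GSTP1 to MGST1 transcripts was 4.88 there against 8.99 and 9.70.

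**Figure D3:**
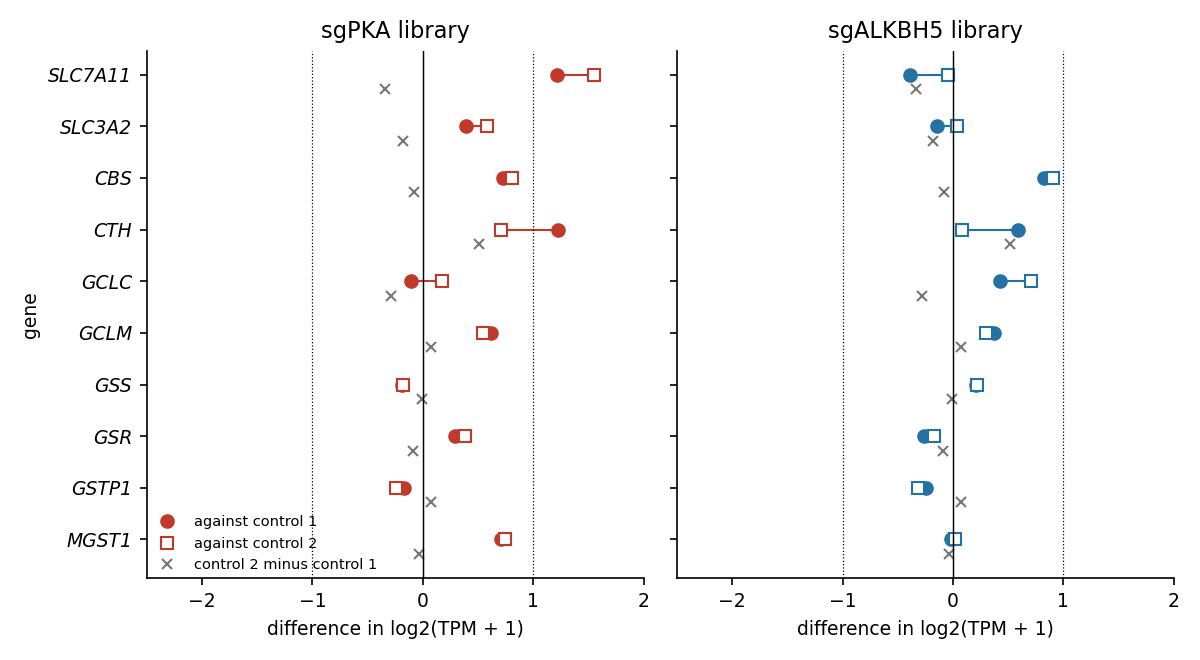
Difference in log2(TPM + 1) of each of the 10 genes in sgPKA (left) and sgALKBH5 (right) from control 1 (filled circles) and control 2 (open squares), with control 2 minus control 1 as grey crosses and dotted lines at a 2-fold difference. SLC7A11 in sgPKA is past the line against both controls, at 1.21 and 1.55, and CTH against control 1, at 1.23.

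Setting sgALKBH5 beside the same controls asks the same for the demethylase. None of the 10 genes lay 2-fold from both controls, against 1.03% of all genes higher and 0.482% lower. In TPM 5 genes were above both controls (CBS, GCLC, GCLM, CTH and GSS) and 3 below both (SLC7A11, GSR and GSTP1), against 39.1% and 27.5% of all genes. In normalised counts 4 were above and 5 below, against 33.0% and 34.3%, because CTH came to lie between the controls and SLC3A2 and MGST1 below them. The median difference was 0.11 in log2(TPM + 1) against 0.05 over all genes. GCLC had a count ratio of 1.36 (counting interval from 1.21 to 1.52) and lay above control 1 by 0.42 and above control 2 by 0.71 on the log2(TPM + 1) scale. SLC7A11 had a count ratio of 0.783 (0.691 to 0.887), but in log2(TPM + 1) it lay only 0.05 below control 2. The value of MGST1 was within the controls in TPM and -0.02 from them in log2 counts.

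No gene passed edgeR's quasi-likelihood test at an adjusted p of 0.05 in any comparison, that is 0% of 13061 genes. For the 10 genes the adjusted p ran from 0.527 to 0.922 in sgPKA and was 0.998 for each in sgALKBH5. At an unadjusted p under 0.05 in edgeR there were 2 of the 10 genes in sgPKA, SLC7A11 and CBS, where 9.07% of all genes were counted. In sgALKBH5 there was 1, CBS, where 2.83% were counted. Both counts of CBS rest on its own row, whereas summed with CBSL the log2 count ratio was 0.46 in sgPKA and 0.43 in sgALKBH5, against fold changes of 0.58 and 0.85 for CBS alone. DESeq2 and limma called 0 of the 10 genes in either comparison, while over all genes DESeq2 called 114 in sgPKA and 33 in sgALKBH5 and limma called 0. A p that misses the threshold with 1 library per knockout does not show that the levels are alike.

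Set directly against each other, the knockout libraries differed at least 2-fold in log2(TPM + 1) for 1 of the 10 genes, SLC7A11, where 5.68% of all genes were higher in sgPKA and 7.09% lower. The count-based log2 fold change of SLC7A11 between sgPKA and sgALKBH5 was 1.76 (SE 0.31). Its adjusted p was 0.424 in edgeR's quasi-likelihood test and 0.05004 in DESeq2, neither below the threshold. The next differences were 0.57 for CTH and 0.55 for MGST1, both higher in sgPKA, and -0.53 for GSS and -0.52 for GCLC, both higher in sgALKBH5. GSTP1 differed by -0.05 in counts and by 0.08 in log2(TPM + 1), so that its direction turned with the scale.

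The 3 genes whose log2(TPM + 1), centred over the 4 libraries, lay nearest to that of SLC7A11 were TRPM7, PRNP and RAB27B, with root mean square distances of 0.05, 0.06 and 0.08. TRPM7, a cation channel with a kinase domain, was at 2.95 and 2.07 TPM in the controls, 7.53 TPM in sgPKA and 2.101 TPM in sgALKBH5. PRNP, the prion protein gene, was at 304 and 243 TPM, 732 TPM and 258 TPM in the same order. RAB27B, a small GTPase of vesicle traffic, was at 2.63, 2.07, 8.38 and 2.23 TPM. With 4 libraries this likeness is a description.

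Promoter windows from RefSeq on GRCh38.p14, from 250 bases before to 50 after a transcript start, matched 7 of the 10 symbols with 13 windows, so that SLC7A11, GSS and GSR were not searched. The windows were searched on both strands for 5 motifs that bear on known regulators of these genes. These were the antioxidant response core TGACNNNGC bound by NRF2, the AP-1 site TGANTCA, the C/EBP-ATF core TGATGNAA bound by ATF4, and the full and short cAMP response elements TGACGTCA and TGACG bound by CREB, a substrate of protein kinase A. The antioxidant core can overlap the AP-1 site, and the short element lies within the full one. The antioxidant core was found in 5 of the 13 windows, 1 each of CBS, GCLM, GSTP1, MGST1 and SLC3A2, and in 13.3% of all 35116 windows. The AP-1 site was in 2 windows, of GSTP1 and SLC3A2, against 7.71% of all windows, and both times it overlapped the antioxidant core. The short element was in 2, of CTH and SLC3A2, against 24.6%, and the C/EBP-ATF core in 1, of SLC3A2, against 3.62%. The full element was in 0 of the 13 and in 1.85% of all windows.

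The 250 bases before the start are shown for SLC3A2, GCLM and GSTP1, whose matches to the antioxidant core begin TGACT on one strand, and for CTH with the short element. They were picked after the search, since SLC3A2, GCLM and CTH were above both controls in sgPKA and GSTP1 below both. Capitals mark matches to the antioxidant core, the AP-1 site and the short element, 5′ to 3′ on the gene's strand. SLC3A2 is the most downstream of its 3 windows, at chr11:62881449-62881698 on the plus strand, GCLM is at chr1:93909431-93909680 on the minus strand, GSTP1 at chr11:67583562-67583811 and CTH at chr1:70411018-70411267, both on the plus strand.
SLC3A2: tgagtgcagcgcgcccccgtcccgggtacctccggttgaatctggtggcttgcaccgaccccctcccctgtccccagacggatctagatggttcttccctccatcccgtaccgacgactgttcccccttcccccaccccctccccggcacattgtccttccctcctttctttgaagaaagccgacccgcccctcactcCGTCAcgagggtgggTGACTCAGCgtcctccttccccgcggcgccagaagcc
GCLM: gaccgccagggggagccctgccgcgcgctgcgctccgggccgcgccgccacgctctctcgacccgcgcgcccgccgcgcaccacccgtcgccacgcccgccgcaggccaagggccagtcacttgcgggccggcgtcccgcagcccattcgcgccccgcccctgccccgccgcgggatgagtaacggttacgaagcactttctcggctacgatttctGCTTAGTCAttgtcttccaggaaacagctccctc
GSTP1: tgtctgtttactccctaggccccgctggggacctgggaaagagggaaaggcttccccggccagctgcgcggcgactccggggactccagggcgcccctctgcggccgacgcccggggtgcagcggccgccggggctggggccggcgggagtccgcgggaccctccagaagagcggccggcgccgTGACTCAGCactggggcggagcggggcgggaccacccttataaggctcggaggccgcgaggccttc
CTH: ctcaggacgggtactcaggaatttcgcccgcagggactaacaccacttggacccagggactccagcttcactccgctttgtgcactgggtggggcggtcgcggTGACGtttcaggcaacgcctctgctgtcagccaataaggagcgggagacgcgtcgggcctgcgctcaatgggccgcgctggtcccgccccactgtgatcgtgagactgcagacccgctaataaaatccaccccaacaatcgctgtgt
The core TGACTCAGC stands at -37 to -29 in SLC3A2 and at -66 to -58 in GSTP1, counted from -1 for the base before the start, and GCLM carries GCTTAGTCA, the core read on the other strand, at -34 to -26. GSTP1 and SLC3A2 share the same 9 letters, in SLC3A2 only in the most downstream of its 3 windows. Any part of these letters in the levels was not tested. A match is a description of the letters and shows no binding.

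Around these genes, 11 lists of pathway genes and regulators held 111 symbols, of which 109 were in the table and 78 had a mean of at least 1 TPM. None of the 78 passed edgeR's test. In sgPKA 0 of them lay 2-fold above or below both controls, against 1.04% and 1.39% of all genes. In sgALKBH5 2 lay above and 1 below, against 1.03% and 0.482% of all genes. The 3 were the sulfide oxidase gene SQOR, the stress-induced factor gene ATF3 and GGT1, which starts the breakdown of extracellular glutathione. SQOR was at 28.2 and 6.26 TPM in the controls, 5.63 TPM in sgPKA and 76.96 TPM in sgALKBH5, so the controls themselves lay over 2-fold apart. GGT1 was at 21.6 and 63.5 TPM in the controls, 37.3 TPM in sgPKA and 4.07 TPM in sgALKBH5, and here too the controls lay over 2-fold apart, in the other direction. It shares sequence with other members of its family, so its counts are uncertain.

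Among regulators, NFE2L2, the gene of NRF2, was at 30.1 and 27.7 TPM in the controls, 44.9 TPM in sgPKA and 30.4 TPM in sgALKBH5. ATF4, which drives SLC7A11 and CTH under amino acid stress, was at 683 and 449 TPM in the controls, 900 TPM in sgPKA and 525 TPM in sgALKBH5. Both lay above both controls in sgPKA, on counts too, without passing edgeR's quasi-likelihood test. For ATF4 control 2 minus control 1 was -0.60 in log2(TPM + 1), a larger gap than the 0.40 of sgPKA minus control 1. ATF3 was at 23.2 and 12.9 TPM in the controls, 22.98 TPM in sgPKA and 57.2 TPM in sgALKBH5. In TMM-normalised CPM it was at 20.1 and 13.4 in the controls, 12.8 in sgPKA and 39.2 in sgALKBH5. Its sgPKA value thus lay between the controls in TPM but below both on counts. Its sgALKBH5 value was past 2-fold from both controls in log2(TPM + 1), but under 2-fold from control 1 on counts. KEAP1, which targets NRF2 for degradation, was at 65.1 and 37.5 TPM in the controls, 48.9 TPM in sgPKA and 56.2 TPM in sgALKBH5. It lay between the controls in both knockouts. BACH1, a repressor at antioxidant elements, was at 6.65, 7.82, 8.65 and 6.34 TPM in control 1, control 2, sgPKA and sgALKBH5. It too was above both controls in sgPKA in TPM, but between them on counts. Of the 9 regulators 3 were above both controls in sgPKA in TPM and 2 on counts, against 50.3% and 39.7% of all genes. The deubiquitinase gene BAP1 was at 62.8, 61.4, 58.4 and 73.1 TPM, and OTUB1, which stabilises the SLC7A11 protein, at 128, 129, 123 and 132 TPM. CD44, a surface protein that binds SLC7A11 in some tumour cells, was at 1337 and 789 TPM in the controls, 1058 TPM in sgPKA and 1396 TPM in sgALKBH5.

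The methionine cycle supplies the homocysteine that CBS uses. The list around it held 8 genes at 1 TPM or more, the AHCY-like genes AHCYL1 and AHCYL2 among them. Of these 8, 7 were above both controls in sgPKA and 1, AHCY, below both. The median difference was 0.52 in log2(TPM + 1) against 0.15 over all genes. The split was the same on counts, where the median log2 fold change was 0.42, and of all genes 50.3% lay above both controls in TPM and 39.7% on counts. AHCY, which releases homocysteine, was at 531 and 583 TPM in the controls, 389 TPM in sgPKA and 662 TPM in sgALKBH5. MAT2A, which makes S-adenosylmethionine, was at 149.5 and 95.9 TPM in the controls, 202 TPM in sgPKA and 151 TPM in sgALKBH5. For MAT2A control 2 minus control 1 was -0.64 in log2(TPM + 1), a larger gap than the 0.43 of sgPKA minus control 1. Of the other cystine, cysteine and glutamate carriers, 5 of 10 reached 1 TPM, and 3 were above and 2 below both controls in sgPKA. The glutamine carrier gene SLC1A5 was at 292 and 298 TPM in the controls, 252 TPM in sgPKA and 266 TPM in sgALKBH5. MFSD12, a carrier of cysteine into lysosomes and melanosomes, was at 119 and 116 TPM, 80.5 TPM and 155 TPM in the same order.

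Lists of glutathione use had medians on either side of those of all genes. For 9 cytosolic transferases the median in sgPKA was -0.03 in log2(TPM + 1) and -0.18 in count-based log2 fold change, with GSTO1 at 379 and 477 TPM in the controls, 459.8 TPM in sgPKA and 309 TPM in sgALKBH5, and GSTZ1 at 52.7, 53.1, 69.3 and 58.2 TPM. For 9 genes of glutathione transport it was -0.12 in sgPKA and -0.13 in sgALKBH5 in log2(TPM + 1), and -0.32 and -0.21 on counts. The mitochondrial carrier gene SLC25A39 was at 168, 196, 145 and 163 TPM and SLC25A11 at 138, 147, 119 and 129.7 TPM, in the order control 1, control 2, sgPKA and sgALKBH5. Glutaredoxin and thioredoxin genes had a median of 0.24 in sgPKA and -0.34 in sgALKBH5 over 10 genes, and 0.03 and -0.40 on counts. In sgALKBH5 6 of them lay below both controls in TPM and 7 on counts, against 27.5% and 34.3% of all genes. TXNRD1, the cytosolic thioredoxin reductase, was at 301 and 310 TPM in the controls, 425 TPM in sgPKA and 227 TPM in sgALKBH5. TXN was at 260.2 and 306 TPM, 356 TPM and 291 TPM in the same order. The glyoxalase list had a median of 0.01 in sgPKA, which turned to -0.18 on counts, and of -0.10 in sgALKBH5 over 5 genes, with GLO1 at 186, 247, 299 and 182 TPM and ADH5 at 171, 140.3, 154 and 153 TPM. In the family of MGST1, MGST3 was at 53.8, 86.9, 98.4 and 52.96 TPM, and the prostaglandin synthase gene PTGES at 18.1 and 0.986 TPM in the controls, 0.233 TPM in sgPKA and 6.81 TPM in sgALKBH5. The 3 genes of that list with a mean of 1 TPM had a median of -0.54 in sgPKA, the furthest of the 11 lists from that of all genes, and -1.64 on counts. Both medians are the values of a single gene, ALOX5AP, named here after its values were seen. It rested on 4 and 19 counts in the controls, 3 in sgPKA and 35 in sgALKBH5. Its sgPKA value lay between the controls in TPM and below both on counts. In sgALKBH5 the median of the list was 0.34 in log2(TPM + 1) but -0.51 on counts. Of the 3 genes, 2 lay 2-fold apart between the controls.

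**Figure D4:**
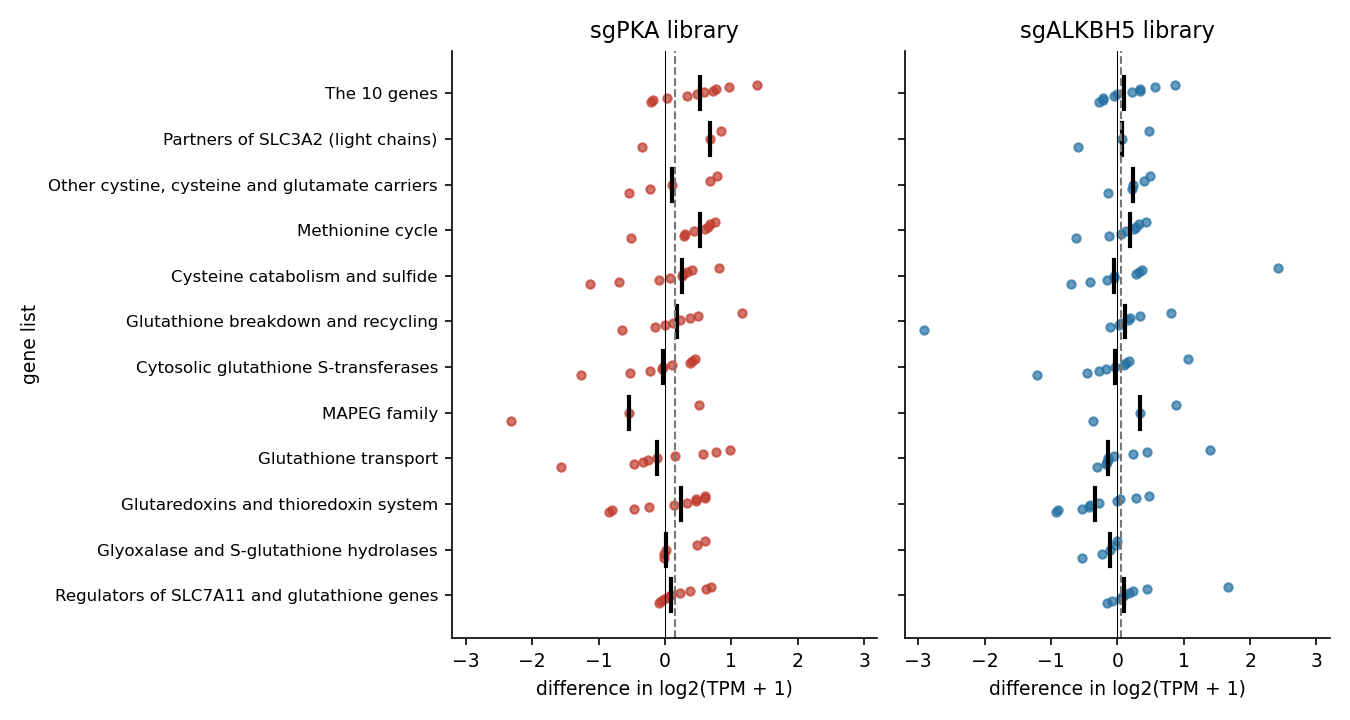
Difference from the control mean in log2(TPM + 1) for the 10 genes and the 11 lists around them in sgPKA (left) and sgALKBH5 (right), with 1 point per gene at a mean of 1 TPM or more, a black bar at each list's median and a dashed line at the median of all genes. The 10 genes have a median of 0.53 in sgPKA and 0.11 in sgALKBH5, beside 0.15 and 0.05 for all genes.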

How the data were processed

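The authors deposited 1 table with TPM and expected counts per gene and library, per the file headers. Among the tools and builds in the submitters' processing notes are RSEM, StringTie 1.3.1, GRCh38.p14, HISAT2 2.1.0 and fastp 0.18.0, with no roles given. Messenger RNA was enriched with capture beads, per the labels' protocols, while strand use and the annotation release are not given in the sources used here. Rounded, the deposited expected counts were tested with edgeR 4.0.16 (TMM, filterByExpr, quasi-likelihood test, Benjamini-Hochberg adjustment at 0.05) in R 4.3.3, with 4 libraries in 1 fit of 3 groups. The 1 residual degree of freedom comes from the controls, so the single library of each knockout is taken to have the controls' spread. In edgeR the spread of each gene is also drawn towards that of the other genes. An SE or p-value of a gene therefore does not rest on its own 2 control values alone. The 2-fold rule required a difference of at least 1 in log2(TPM + 1) from each control in the same direction and a mean of at least 1 TPM; such folds understate changes of low genes. At the lowest and highest depth, 3 counts are 0.201 and 0.118 TMM-normalised CPM. Repeated symbols took the row with the highest mean TPM. Intervals come from SciPy 1.17.1. The edgeR fit was also run on simulated data, and DESeq2 and limma were not. The planted changes were larger than any seen among the 10 genes, so smaller ones were not checked. The 10 genes and the lists were chosen with earlier results of these data known. All 10, the listed regulators except 1 that is not reported here and, per list, genes past the 2-fold rule or else the 2 with the highest mean TPM are named. Alternatives used DESeq2 1.42.0 and limma 3.58.1.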

Additional observations from a re-analysis of the deposited data

How the results depend on the processing

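SLC7A11 was the 1 gene of the 10 past the 2-fold rule in sgPKA with a pseudocount of 0.1, a minimum of 5 TPM or none, scaling by TMM and without control 1. Without control 2 CTH joined it, so that leaving out a control gave 1 to 2 genes. In sgALKBH5 the count was 0 under each of these. Over all genes the rule counted 283 in sgPKA and 176 in sgALKBH5, which became 605 and 288 with a pseudocount of 0.1, 100 in sgALKBH5 with a minimum of 5 TPM, and with 1 control left out 668 to 1135 and 301 to 974. With TPM rescaled, the split in sgPKA moved from 121 higher and 162 lower to 73 and 198. The 0 calls of edgeR became 114 for sgPKA, 33 for sgALKBH5 and 311 between the knockouts in the Wald test of DESeq2, and stayed 0 with DESeq2 size factors, without a filter, with 3 libraries and in limma; at an unadjusted p under 0.05 edgeR counted 1184, 369 and 1521. The cause was not tested. Of the alternative fold changes of the 10 genes, 11 changed sign, and 35 with no test moved by more than the spread of the controls. The other 194 kept their sign, but for those with a test a move past that spread was not counted. For GCLC in sgPKA the sign turned to 0.0363 in limma and in log2(TPM + 1) and to 0.0405 in log2(TPM + 0.1), and leaving out a control gave -0.30 to 0.19. For MGST1 in sgALKBH5 it turned to 0.000747 in limma and log2(TPM + 1) and 0.000758 in log2(TPM + 0.1), for GSTP1 between the knockouts to 0.0783 and 0.0784, while leaving out a control gave CTH in sgALKBH5 -0.0103 to 0.796. No paired analysis was possible because each knockout has 1 library and its label carries no replicate number.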

Other observations

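Several genes around the glutathione pathway lay above both controls in one knockout library and below both in the other. They were chosen after their values were seen, none passed edgeR's test, and both knockouts were set against the same controls, so the values are given side by side without a test. Either side was common in TPM, with 50.3% of all genes above both controls and 26.9% below in sgPKA. In sgALKBH5 these shares were 39.1% and 27.5%. The share of all genes on opposite sides in the 2 knockouts was not counted. SRXN1, which reduces overoxidised peroxiredoxins and is a known NRF2 target, was at 55.7 and 44.9 TPM in the controls, 76.8 TPM in sgPKA and 25.9 TPM in sgALKBH5. The glutaredoxin gene GLRX was at 31.5 and 48.6 TPM, 60.2 TPM and 29.2 TPM in the same order. In TMM-normalised CPM GLRX in sgPKA, at 27.8, lay close to control 2, at 26.6. SLC25A40, a mitochondrial glutathione carrier, was at 6.21 and 7.26 TPM in the controls, 14.3 TPM in sgPKA and 5.23 TPM in sgALKBH5. In the other direction, the transferase gene GSTM3 was at 17.4 and 7.80 TPM in the controls, 4.31 TPM in sgPKA and 25.5 TPM in sgALKBH5, and the export pump gene ABCC3 at 11.6 and 1.301 TPM, 0.823 TPM and 13.2 TPM. For these last 2 genes the controls lay far apart, with control 1 on the side of sgALKBH5.

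Part of the pathway was not detected in these cells. Of the 109 listed genes in the table, 16 had 0 counts in all 4 libraries, as did 3989 of all 20323 genes. Among the 16 were CDO1, which starts the oxidation of cysteine to taurine, and the homocysteine remethylases BHMT and BHMT2. The dipeptidase genes DPEP1, DPEP2 and DPEP3 were others. A count of 0 allows up to 3 counts, which is 0.118 TMM-normalised CPM in sgALKBH5 and 0.201 in sgPKA. CHAC1, the stress-induced enzyme that cleaves glutathione inside the cell, was at 23.3 and 9.93 TPM in the controls, 35.5 TPM in sgPKA and 15.5 TPM in sgALKBH5, with the controls themselves over 2-fold apart.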
